A study of Mus musculus with 11 samples.

Results

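Genes for the enzymes, and for a transporter, that build the lipid barrier of stratified epithelium were followed in the gingiva. They were Elovl4, Cers3, Sptlc2, Ugcg, Abca12, Smpd1, Asah1, Alox12b, Aloxe3 and Alox12 and were chosen by gene symbol. All 10 genes had values in the deposited table, which lists 55414 genes and gives values for 19170 of them. All 11 animals were langerin-DTR mice, in which the promoter of langerin, a protein of Langerhans cells (LCs), drives the receptor for diphtheria toxin (DT), so that DT kills langerin-positive cells. The control group of 5 mice received PBS and the other 6 mice DT, by injection on day 17, day 24 and day 31 of life. Gingival epithelium was taken at 8 weeks of age, weeks after the last injection, so the groups differ by a past depletion. By flow cytometry, the paper reported that LCs had returned to normal frequencies by that age. RNA was measured in bulk, where fewer cells of a type and less RNA per cell cannot be told apart.

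Keratinocytes of the upper layers make long-chain ceramides, load them with a linoleate tail and pass them, as glucosylceramides, into lamellar granules. Outside the cell the glucose is removed, and lipoxygenases oxidize the linoleate so that the ceramide can be bound to the cornified envelope. Loss of several of these enzymes in humans causes ichthyosis, a scaling disorder with a leaky skin barrier, and in oral mucosa the keratinizing regions such as the attached gingiva use the same route.

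The sequence upstream of the transcription start is shown for the 4 genes with the results described most fully, Elovl4, which had the smallest p between the groups, and Cers3, Smpd1 and Alox12b, which varied together among the mice. Sequences are from RefSeq (GRCm38.p6), read 5′ to 3′ in the direction of transcription and ending at the start site, except that of Alox12b, which ends where an annotated upstream exon begins. Capitals mark GGGCGG or its reverse complement CCGCCC, the core of the GC box that Sp1-type factors bind.
Elovl4, GRCm38.p6 chr9:83806306-83806555, minus strand: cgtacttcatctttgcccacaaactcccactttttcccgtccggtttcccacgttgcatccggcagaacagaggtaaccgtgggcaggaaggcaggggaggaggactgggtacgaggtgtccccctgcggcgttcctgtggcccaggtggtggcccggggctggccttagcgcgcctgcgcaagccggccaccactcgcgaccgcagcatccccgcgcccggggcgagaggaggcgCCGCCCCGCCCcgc
Cers3, GRCm38.p6 chr7:66743254-66743503, plus strand: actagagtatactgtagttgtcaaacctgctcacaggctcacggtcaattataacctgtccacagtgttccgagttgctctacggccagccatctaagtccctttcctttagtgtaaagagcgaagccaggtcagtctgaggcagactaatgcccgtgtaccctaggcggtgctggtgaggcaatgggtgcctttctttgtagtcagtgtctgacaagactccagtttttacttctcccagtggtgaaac
Smpd1, GRCm38.p6 chr7:105554110-105554359, plus strand: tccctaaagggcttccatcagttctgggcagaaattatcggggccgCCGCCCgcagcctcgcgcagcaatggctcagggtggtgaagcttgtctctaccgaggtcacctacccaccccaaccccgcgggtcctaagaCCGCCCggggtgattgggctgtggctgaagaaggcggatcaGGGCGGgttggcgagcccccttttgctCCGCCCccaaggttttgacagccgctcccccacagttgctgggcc
Alox12b, GRCm38.p6 chr11:69156822-69156988, plus strand: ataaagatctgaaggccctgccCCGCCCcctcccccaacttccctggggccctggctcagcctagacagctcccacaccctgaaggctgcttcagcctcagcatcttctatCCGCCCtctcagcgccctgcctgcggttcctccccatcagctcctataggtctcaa
Entries were found for 8 of the 10 genes. Of the 250 bases upstream of the start site, those of 6 of the 8 genes held a GC box on either strand, with 4 in Smpd1, 3 in Alox12b (2 of them in the bases shown) and 2 each in Elovl4, Alox12, Ugcg and Sptlc2, and those of Cers3 and Abca12 held none. A GC box was found in 32.7% of all 32851 promoters of the same length. In Elovl4 the 2 GC boxes overlap by 1 base. The letters TGANTCA (AP-1), CACGTG (E-box) and TATAAA, searched on both strands, were in 0 of the 8 and in 6.75%, 6.02% and 12.4% of all promoters. The upstream sequence of Cers3 had a GC content of 49.6% and those of Elovl4, Alox12b and Smpd1 of 69.6%, 66.0% and 64.8%, with a median of 52.4% over all promoters.

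All 10 genes were expressed in each of the 11 mice. Levels were compared between genes as normalized counts per kilobase of exon, a scale that assumes reads along the whole transcript. Alox12b, a lipoxygenase that oxidizes the linoleate of ceramides, had the highest level of the 10, with 3650 ± 327 per kb (SD, n = 11 mice). Elovl4, the elongase that makes the very long acyl chains of barrier ceramides, followed with 2830 ± 225 per kb. Alox12b was above Elovl4 in 11 of 11 mice, but the ranges of these genes overlapped. In normalized counts not divided by length, Elovl4 was above Alox12b in some DT-treated mice, such as DT 1 (8307 against 7628). Cers3, the ceramide synthase that takes these acyl chains, had 1290 ± 84.7 per kb, and Smpd1, the acid sphingomyelinase that frees ceramide from sphingomyelin, had 1050 ± 95 per kb. Lower levels were found for Alox12 (653 ± 31.4 per kb), Aloxe3 (490 ± 87.5 per kb), Ugcg (457 ± 22.7 per kb), Abca12 (350 ± 28.6 per kb), Sptlc2 (272 ± 18.4 per kb) and Asah1 (127 ± 12.2 per kb). In this order the ranges over mice overlapped between Alox12b and Elovl4, between Cers3 and Smpd1, between Alox12 and Aloxe3 and between Aloxe3 and Ugcg. Aloxe3 was above Ugcg in 8 of 11 mice, so these neighbours did not differ beyond their spread.

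Each of Cers3, Elovl4 and Alox12b had the highest level of its family. Cers3 made up 78.4 ± 2.15% of the ceramide synthase level after PBS (SD, n = 5) and 79.5 ± 1.42% after DT (SD, n = 6), while Cers2, Cers4 and Cers5 had on average between 5.70% and 6.75% each. Alox12b held 63.9 ± 10.8% of the lipoxygenase level after PBS and 71.3 ± 1.91% after DT, and 70.7 ± 1.72% after PBS without PBS 3 and PBS 5 (SD, n = 3). The wide spread after PBS came with Alox15, a lipoxygenase of arachidonate and linoleate, which had 6244 normalized counts in PBS 3, 2823 in PBS 5 and between 236 and 1304 in the other 9 mice. The sphingomyelinase level was shared mainly by Smpd1, at 49.8 ± 2.54% after PBS, and the neutral enzyme Smpd3, at 42.7 ± 2.91%. Of the large subunits of serine palmitoyltransferase, which starts sphingolipid synthesis, Sptlc1 was above Sptlc2 and Sptlc3 per kb, with 42.5 ± 1.31%, 28.9 ± 1.19% and 28.6 ± 1.89% after PBS. These last orders rest on the division by exon length and turn without it. In mean normalized counts after PBS, Sptlc2 had 2130 and Sptlc1 1374, and Smpd3 had 4593 and Smpd1 3411.

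**Figure D1:**
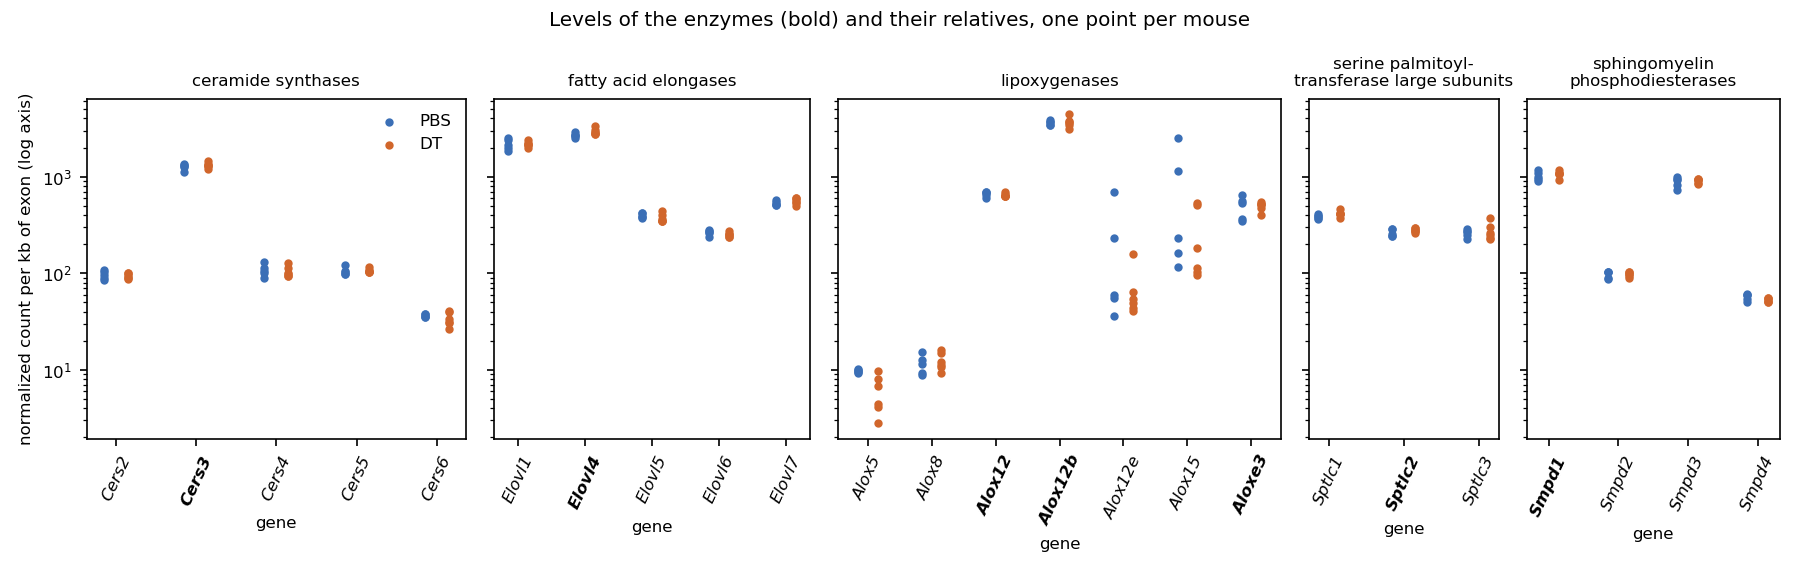
Normalized count per kb of exon, on a log axis, of the enzymes (bold) and their relatives, with 1 point per mouse, blue for PBS (n = 5) and orange for DT (n = 6). Cers3, Elovl4 and Alox12b lead their families, and Alox15 and Alox12e spread most among the PBS-treated mice; Cers1, at or near 0, is not drawn.

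PBS 3 and PBS 5 lay apart from the other mice on the first principal component, with scores of -17.2 and -20.9 against 11.9 to 13 for the other 3 PBS-treated mice and -10.5 to 9.09 for the DT-treated mice. This component held 36.0% of the variance of the 500 most variable genes. Values without these 2 mice, chosen after the values were seen, are given beside the results that moved with them.

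The study asked how the loss of LCs early in life bears on the adult epithelium. Between DT-treated and PBS-treated mice, 0 of the 10 genes passed an adjusted p of 0.1 by limma, where 0.558% of the 19170 genes passed. Their adjusted p-values by limma lay between 0.414 and 0.976. The log2 difference, DT minus PBS, was positive for 8 of the 10 genes and negative for 2, with a median of 0.07, beside -0.01 over all genes. An unadjusted p under 0.05 was found for 1 of the 10 genes, Elovl4, beside 11.5% of all genes. Values of the groups overlapped for all 10 genes, while in 2.11% of the genes that averaged 10 or more normalized counts they did not. For the 9 genes other than Aloxe3, the 95% intervals of the log2 difference lay between -0.17 and 0.25.

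**Figure D2:**
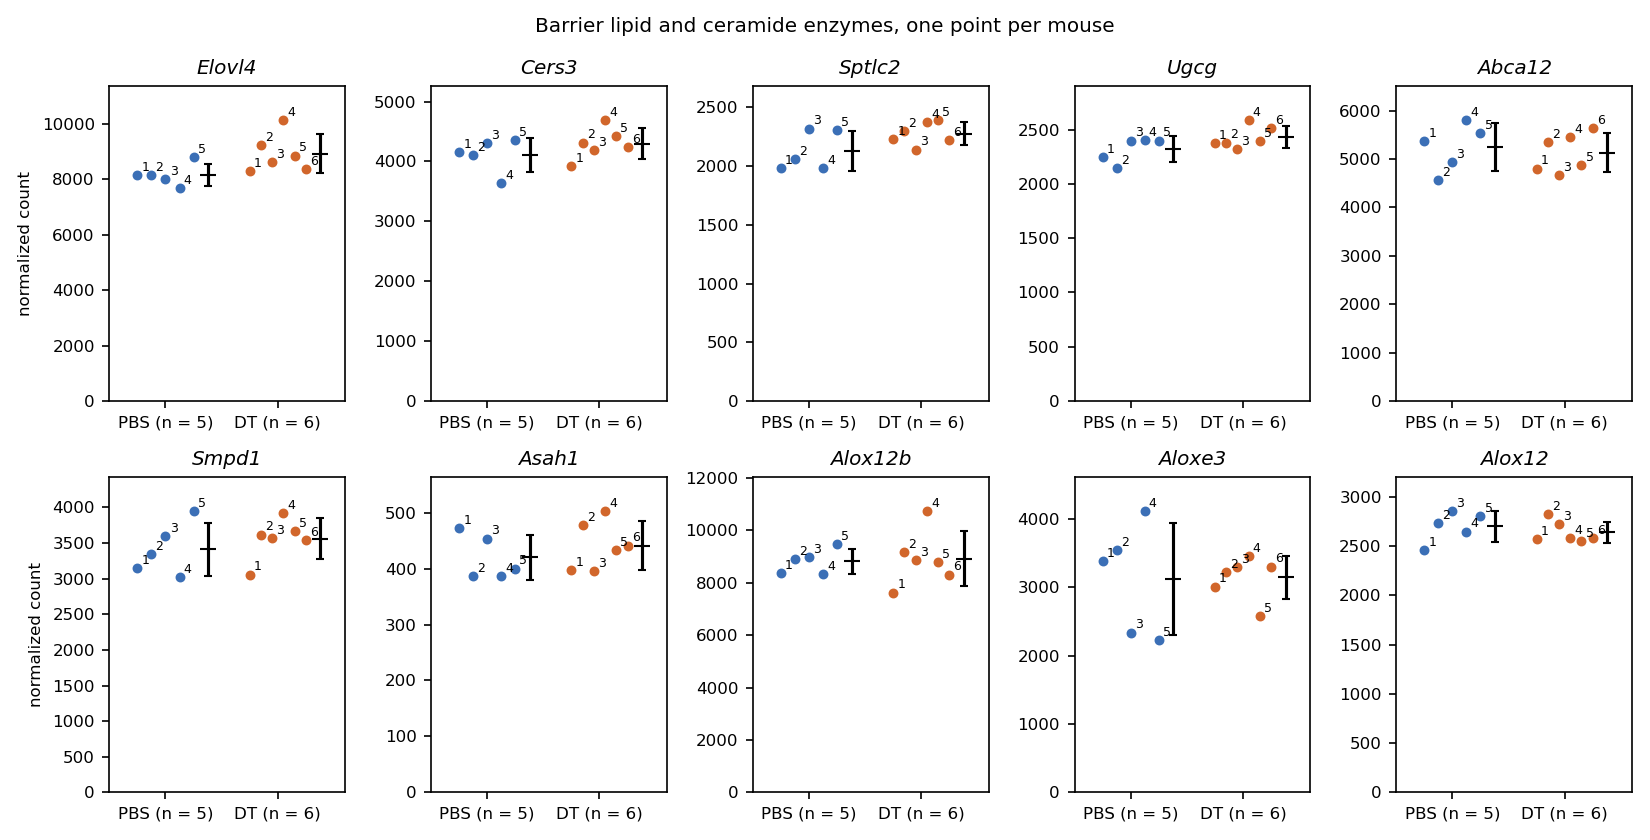
Normalized counts of the 10 genes, 1 point per mouse marked with its number, with the mean and SD of each group as a black bar (PBS, n = 5, and DT, n = 6) and axes from 0. The groups overlap for every gene, and Aloxe3 is low in PBS 3 and PBS 5.

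Among the genes of ceramide synthesis, Elovl4 had 8149, 8157, 8011, 7696 and 8795 normalized counts from PBS 1 to PBS 5. After DT it ranged from 8307 to 10150 with a median of 8740. All 6 DT-treated mice were above the PBS mean and 3 were above every PBS-treated mouse. The mean was 8162 ± 400 after PBS (SD, n = 5) and 8926 ± 693 after DT (SD, n = 6), a log2 difference of 0.13 (95% interval 0.004 to 0.25, limma adjusted p = 0.414). Cers3 had 4156, 4101, 4305, 3633 and 4363 normalized counts from PBS 1 to PBS 5 and ranged from 3919 to 4696 with a median of 4279 after DT. PBS 4 was the lowest and DT 4 the highest of all mice, and the log2 difference of 0.07 (95% interval -0.06 to 0.19) did not pass (limma adjusted p = 0.715). Sptlc2, a catalytic subunit of serine palmitoyltransferase, had 1981, 2059, 2319, 1981 and 2310 normalized counts from PBS 1 to PBS 5, and 2141 to 2395 with a median of 2264 after DT. PBS 3 and PBS 5 lay within the DT values and the other PBS-treated mice below them. Its log2 difference was 0.10 (95% interval -0.02 to 0.22, limma adjusted p = 0.519).

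Without PBS 3 and PBS 5, an alternative chosen after the values were seen and from the same values, 10.3% of all genes passed the threshold and 1 of the 10 enzymes did, a share near that background. That gene was Sptlc2, with a log2 difference of 0.18 (limma adjusted p = 0.0441).

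Among the genes that convert, pack and release ceramide, Ugcg, the glucosylceramide synthase, had a mean of 2322 ± 118 normalized counts after PBS (SD, n = 5) and 2430 ± 102 after DT (SD, n = 6), and its log2 difference was 0.07 (95% interval -0.04 to 0.17). Abca12, the transporter that loads glucosylceramide into lamellar granules and is mutated in harlequin ichthyosis, had 5245 ± 494 after PBS and 5133 ± 397 after DT, with a log2 difference of -0.03 (95% interval -0.17 to 0.12). Smpd1 had 3145, 3343, 3596, 3026 and 3946 normalized counts from PBS 1 to PBS 5 and 3058 to 3921 with a median of 3594 after DT. No DT-treated mouse exceeded PBS 5, and the log2 difference was 0.07 (95% interval -0.09 to 0.22). Asah1, the acid ceramidase that splits ceramide into sphingosine and a fatty acid, had the lowest counts of the 10, 420 ± 40.6 after PBS and 441 ± 43.0 after DT.

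Of the lipoxygenases, Alox12b acts first and Aloxe3 second on the linoleate of ceramides, while Alox12 is the platelet-type enzyme that is also made in epidermis. Alox12b had 8378, 8918, 8980, 8340 and 9476 normalized counts from PBS 1 to PBS 5 and 7628 to 10730 with a median of 8828 after DT. The DT-treated mice held both the lowest value, in DT 1, and the highest, in DT 4. The log2 difference was 0.01 (95% interval -0.14 to 0.16, limma adjusted p = 0.976), and its sign turned in 4 of the other fits. Alox12 had 2700 ± 154 after PBS (SD, n = 5) and 2639 ± 109 after DT (SD, n = 6), with a log2 difference of -0.03 (95% interval -0.14 to 0.07), which was 0.01 without PBS 3 and PBS 5. Ppbp, the highest gene of the platelet list, was present at 1262 ± 602 normalized counts after PBS and 1192 ± 688 after DT. Of the 7 platelet markers listed, 4 had values and 2 averaged 10 or more normalized counts, while Pf4, Gp9 and Gp6 had no value. The part of platelets in the level of Alox12 was not tested.

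Aloxe3 varied most of the 10 genes, with a coefficient of variation of 17.9% over the mice against 4.81% to 9.58% for the others. It had 3388, 3542, 2337, 4112 and 2225 normalized counts from PBS 1 to PBS 5 and 2584 to 3459 with a median of 3257 after DT. PBS 3 and PBS 5 were the lowest of all mice and PBS 4 the highest, so that the PBS values enclosed all DT values. The log2 difference was 0.05 (95% interval -0.24 to 0.33, limma adjusted p = 0.932). It turned to -0.05 without PBS 3, to -0.07 without PBS 5 and to -0.23 without both (limma adjusted p = 0.117 for the last).

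**Figure D3:**
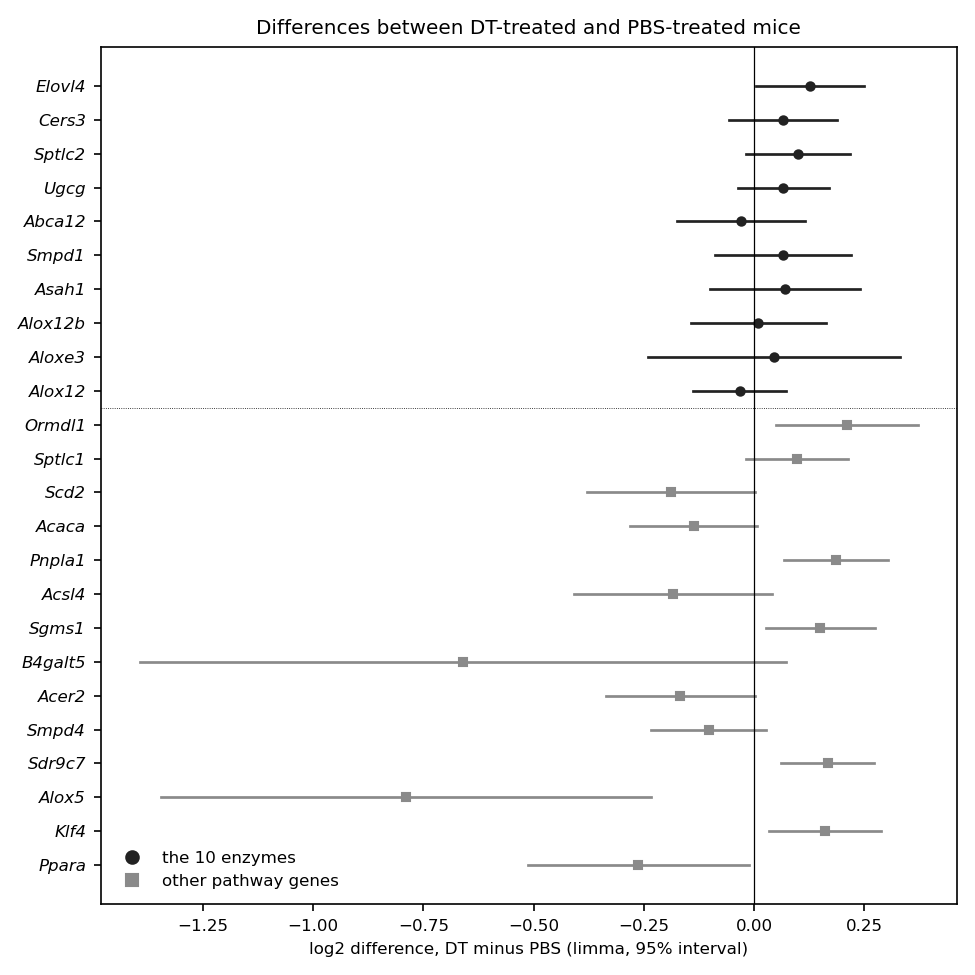
Log2 difference, DT minus PBS, with its 95% interval by limma, for the 10 enzymes (black circles) and the 14 other pathway genes chosen by rule (grey squares). The intervals of 9 enzymes span 0, that of Elovl4 starts at 0.004, and Alox5 has the lowest difference of the genes drawn, -0.79, with an adjusted p of 0.257.

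Of the other genes of the pathway, taken from 7 lists by role, 94 of 100 listed genes had values, these 10 included, and Fa2h, Elovl2 and Elovl3 were listed without a value. In either direction 0 of the 94 passed the adjusted threshold by limma. At an unadjusted p under 0.05, 6 were higher and 3 lower, which is 9.57% of the 94 beside 11.5% of all genes, and the median log2 difference was 0.02. In the list of ceramide synthesis, 13 of 17 genes had a positive and 4 a negative difference, with a median of 0.06. Ormdl1, a member of the family that restrains serine palmitoyltransferase, had 155 ± 6.13 normalized counts after PBS (SD, n = 5) and 180 ± 10.7 after DT (SD, n = 6), a log2 difference of 0.21 (limma adjusted p = 0.291). Its groups did not overlap, with 162 in the highest PBS-treated and 163 in the lowest DT-treated mouse. The same was so for 2.11% of all genes that averaged 10 or more normalized counts, and Ormdl1 was named for its small p. Sptlc1, the partner subunit of Sptlc2, had a log2 difference of 0.10 (limma adjusted p = 0.512).

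In the list of fatty acid elongation, 7 of 15 genes had a positive difference and the median was -0.08. The lowest p-values of genes other than Elovl4 belonged to Scd2, a desaturase, at -0.19 (limma adjusted p = 0.438), and Acaca, the acetyl-CoA carboxylase that supplies malonyl-CoA, at -0.14 (limma adjusted p = 0.456). Because Elovl4 and some other elongases differed in sign, the share of each in the summed elongase level is given as a description, with no test, since the measure was chosen for that difference. Elovl4 had 45.7%, 45.2%, 42.5%, 46.1% and 43.6% of it in PBS 1 to PBS 5, and 47.1%, 47.1%, 47.0%, 47.5%, 46.4% and 46.0% in DT 1 to DT 6. DT 6 lay just under PBS 4, and the other DT-treated mice were above all PBS-treated mice. The means were 44.6 ± 1.52% (SD, n = 5) and 46.8 ± 0.546% (SD, n = 6), a difference of 2.22 percentage points. Leaving out a mouse gave differences between 1.69 and 2.58 points, and leaving out both PBS 3 and PBS 5 gave 1.18 points. The share of Elovl5, which elongates polyunsaturated fatty acids, was 6.57 ± 0.209% after PBS and 5.94 ± 0.25% after DT and did not overlap between the groups. The normalized counts of Elovl5 did overlap, at 1329 to 1473 after PBS and 1214 to 1539 after DT. Their log2 difference was -0.09 (limma adjusted p = 0.634). Shares of 1 sum depend on each other.

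In the list of acylceramide assembly, 6 of 8 genes had a positive difference. Pnpla1, the transacylase that joins linoleate to ceramide, had 1626, 1590, 1688, 1745 and 1944 normalized counts from PBS 1 to PBS 5 and between 1848 and 2076 after DT. PBS 5 was the one PBS-treated mouse within the DT values. The log2 difference was 0.19 (95% interval 0.07 to 0.30, limma adjusted p = 0.217), and it was 0.23 without PBS 5 (limma adjusted p = 0.054) and 0.22 with array weights (limma adjusted p = 0.0798). In these fits more genes passed in all, 259 and 189 against 107 as reported. Pnpla1 passed in 3 of 19 alternative fits, with differences from 0.158 to 0.238 and limma adjusted p up to 0.465. Acsl4, an acyl-CoA synthetase, had a difference of -0.18 (limma adjusted p = 0.529). In the list of glucosylceramide and sphingomyelin, 5 of 10 genes were positive and the median was 0.00. Sgms1, a sphingomyelin synthase, had a log2 difference of 0.15 (limma adjusted p = 0.327), and B4galt5, which makes lactosylceramide and had under 20 normalized counts on average, had -0.66 (limma adjusted p = 0.484). In the list of ceramide release and breakdown, 11 of 17 genes were positive, with a median of 0.03. Acer2, a Golgi ceramidase, had a difference of -0.17 (limma adjusted p = 0.438), and Smpd4, a neutral sphingomyelinase, of -0.10 (limma adjusted p = 0.549).

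In the lipoxygenase list, 6 of 13 genes had a positive difference and the median was -0.02. Sdr9c7, a dehydrogenase that acts on the products of Alox12b and Aloxe3, had 2144 ± 92.9 normalized counts after PBS (SD, n = 5) and 2408 ± 128 after DT (SD, n = 6), a log2 difference of 0.17 (limma adjusted p = 0.215). Alox5, the leukocyte enzyme of leukotriene synthesis, had 41.9, 40.8, 38.2, 40.1 and 38.8 normalized counts from PBS 1 to PBS 5 and 11.5 to 39.7 after DT. All DT-treated mice but DT 2 were below every PBS-treated mouse. The log2 difference was -0.79 (95% interval -1.35 to -0.23, limma adjusted p = 0.257). The markers of LCs had a negative difference for 8 of 8 genes and passed for 0 of them, with sums of 2897 to 6362 normalized counts after PBS and 2223 to 4001 after DT, and their part in the level of Alox5 was not tested. These differences rested on PBS 3 and PBS 5, without which 4 of the 8 were negative, the median moved from -0.35 to -0.01 and the sums averaged 3236 after PBS and 3182 after DT. The most abundant of them, Cd74, moved from -0.504 to -0.095. Among regulators of barrier lipid genes, 6 of 14 had a positive difference. Klf4, a factor of late keratinocyte differentiation, had a log2 difference of 0.16 (limma adjusted p = 0.307), and Ppara, a lipid-sensing nuclear receptor, had -0.26 (limma adjusted p = 0.406).

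The markers fixed for keratinocytes were present at high levels, as the label of the tissue says, with Krt13 at 860500 ± 37600 normalized counts after PBS (SD, n = 5) and 919500 ± 44600 after DT (SD, n = 6). Of the markers of upper layers, 0 of 13 passed in either direction, and their sums lay between 2704000 and 2765000 after PBS and between 2703000 and 2966000 after DT. Of 8 markers of basal keratinocytes 0 passed, and 0 passed in the lists for junctional epithelium, LCs, macrophages, neutrophils, T cells, platelets, fibroblasts, endothelium, muscle and glands. All 8 basal markers had a positive difference (median 0.10), with 0.01 for Krt14, the most abundant, and 5 of 8 without PBS 3 and PBS 5 (median 0.08). Of the macrophage markers 5 of 6 were negative (median -0.36), with Cd68 at 0.05, and 3 of 6 without the 2 mice (median -0.01). The T cell markers were negative for 4 of 5 (median -0.35, Cd3g -0.28) and for 2 of 5 without the 2 mice (median 0.16). Of these 5, 0 averaged 10 normalized counts, beside 2 of 5 endothelial and 1 of 6 muscle markers, so these signs lie near the floor. Negative differences were also found for 4 of 7 fibroblast markers (median -0.42, Dcn 0.09), 4 of 5 endothelial (median -0.17, Pecam1 -0.17) and 5 of 5 gland markers (median -0.40, Mgst1 -0.09), with medians of -0.65, -0.30 and -0.49 without the 2 mice. The medians were 0.16 for the neutrophil list (S100a9 0.61), -0.04 for junctional epithelium (Odam -0.22), -0.18 for platelets (Ppbp -0.21) and 0.02 for muscle (Myh1 0.30), and 0.65, 0.17, 0.07 and 0.30 without the 2 mice. Without them 2 neutrophil markers passed as higher, and 2 fibroblast markers and 1 marker of upper layers as lower. With all mice, 9 of 10 immediate early genes, such as Jun, passed as higher after DT, with sums of 26190 to 66260 normalized counts after PBS and 70440 to 111700 after DT. Immediate early genes respond to stimulation within minutes, and their part in the values of the enzymes was not tested.

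The 10 genes formed 45 pairs, and across the 11 mice 31 of these had a positive and 14 a negative Pearson r of log2 values, with a median of 0.356. An adjusted permutation p under 0.05 over the 45 pairs was reached by 2 pairs. An r beyond 0.8 in size was found for 3 of the 45 pairs (6.67%), beside 1.58% of all pairs of genes that averaged 10 or more normalized counts. Among single enzymes the share of such genes lay between 0.2% for Abca12 and Asah1 and 7.77% for Sptlc2, with 4.75% for Smpd1, 2.98% for Cers3 and 1.04% for Alox12b. Cers3 and Smpd1 had r = 0.881 (Spearman rho = 0.955, permutation p = 4e-05, adjusted p = 0.0018), and r was 0.867 without PBS 4 and DT 4. Alox12b and Smpd1 had r = 0.808 (rho = 0.80, permutation p = 0.00117, adjusted p = 0.0263), and r was 0.762 without DT 1 and DT 4. DT 4 and PBS 5 were high for all 3 genes, and PBS 4 and DT 1 were low. Cers3 and Elovl4 had r = 0.804 (rho = 0.791) and Cers3 and Sptlc2 had r = 0.749 (rho = 0.864), both with an adjusted permutation p of 0.0517, and r fell to 0.509 and 0.576 without PBS 4 and DT 4. With the group means removed, 8 pairs passed, among them both of the 2 pairs. With a mouse left out, only 1 of the 2 pairs still passed without PBS 1, PBS 5, DT 1, DT 2, DT 3 or DT 4. Both passed when any other mouse was left out.

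**Figure D4:**
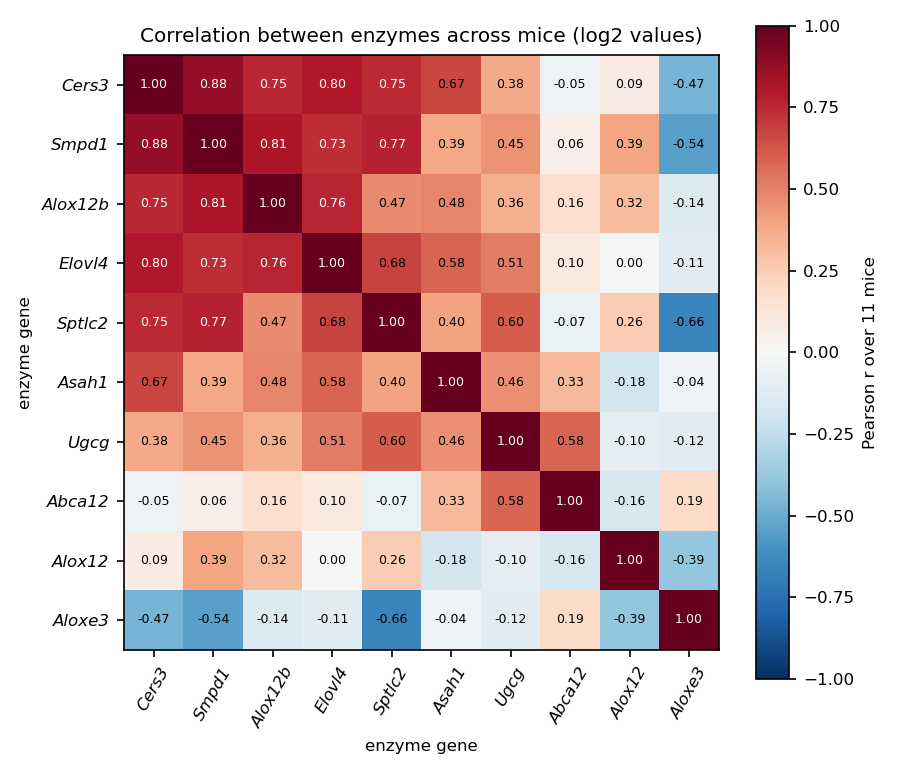
Pearson r of log2 values over 11 mice for each pair of the 10 genes, from blue (-1) to red (1). Cers3, Smpd1, Alox12b, Elovl4, Sptlc2, Asah1 and Ugcg form a block of positive values. Aloxe3 is negative with 8 of the 9 other genes. Within the DT-treated mice alone, not drawn, Aloxe3 is positive with all of them but Sptlc2.

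Over all mice, Aloxe3 had a negative r with 8 of the 9 other genes, of which the lowest was -0.664 with Sptlc2 (rho = -0.655, adjusted permutation p = 0.105, and r = -0.691 without PBS 3 and PBS 5). The negative sign was that of the PBS-treated mice, where r ran from -0.958 for Sptlc2 to -0.288 for Asah1, with 0.116 for Abca12. Within the DT-treated mice r was positive for all but Sptlc2 (-0.393), from 0.155 for Cers3 to 0.488 for Abca12. The level of Aloxe3 followed the first principal component, from which the 10 genes had been left out, with r = 0.924 (rho = 0.809, permutation p = 0.00011, adjusted p = 0.00055 over 10 measures chosen after the values were seen), and r was 0.79 without PBS 3 and PBS 5. The r with this component was -0.792 for Sptlc2, -0.655 for Smpd1 and -0.533 for Cers3, and between -0.445 and -0.058 for the other 6 enzymes. Of 13476 other genes, 833 had an r with Aloxe3 beyond 0.8 in size, while 1047 had one with Sptlc2 and 640 with Smpd1. Cd207, the gene of langerin, had 15.8, 18.5, 32.2, 10.0 and 43.0 normalized counts from PBS 1 to PBS 5 and 15.8 to 21.6 after DT. Its r with Aloxe3 was -0.932 (rho = -0.782, permutation p = 9e-05, adjusted p = 0.00055), and it was -0.865 without PBS 4 and PBS 5, -0.813 without PBS 3 and PBS 5 (rho = -0.60) and -0.744 within the 6 DT-treated mice. Cd207 was chosen after its values were seen, a choice that these p-values do not allow for. Of the 13476 genes other than Aloxe3, 55 had an r with Aloxe3 at least as large in size. The summed LC markers, of which Cd207 is one, had r = -0.617 with Aloxe3 (rho = -0.264, permutation p = 0.0434, adjusted p = 0.062), which was 0.142 without PBS 3 and PBS 5 and 0.29 within the DT-treated mice, so that it rested on the 2 mice. Alox15 had r = -0.739 with Aloxe3, which was -0.271 without PBS 3 and PBS 5 and rested on those mice. Alox12e, an epidermal lipoxygenase, had r = -0.829 (rho = -0.582) and r = -0.605 without them. With the summed markers of upper layers, the summed immediate early genes and the number of reads counted, r was 0.031, 0.362 and 0.199, and -0.477, -0.41 and 0.122 without the 2 mice. The nuclear RNAs Malat1 and Neat1 had r = 0.648 and 0.703, and 0.857 and 0.769 without them.

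**Figure D5:**
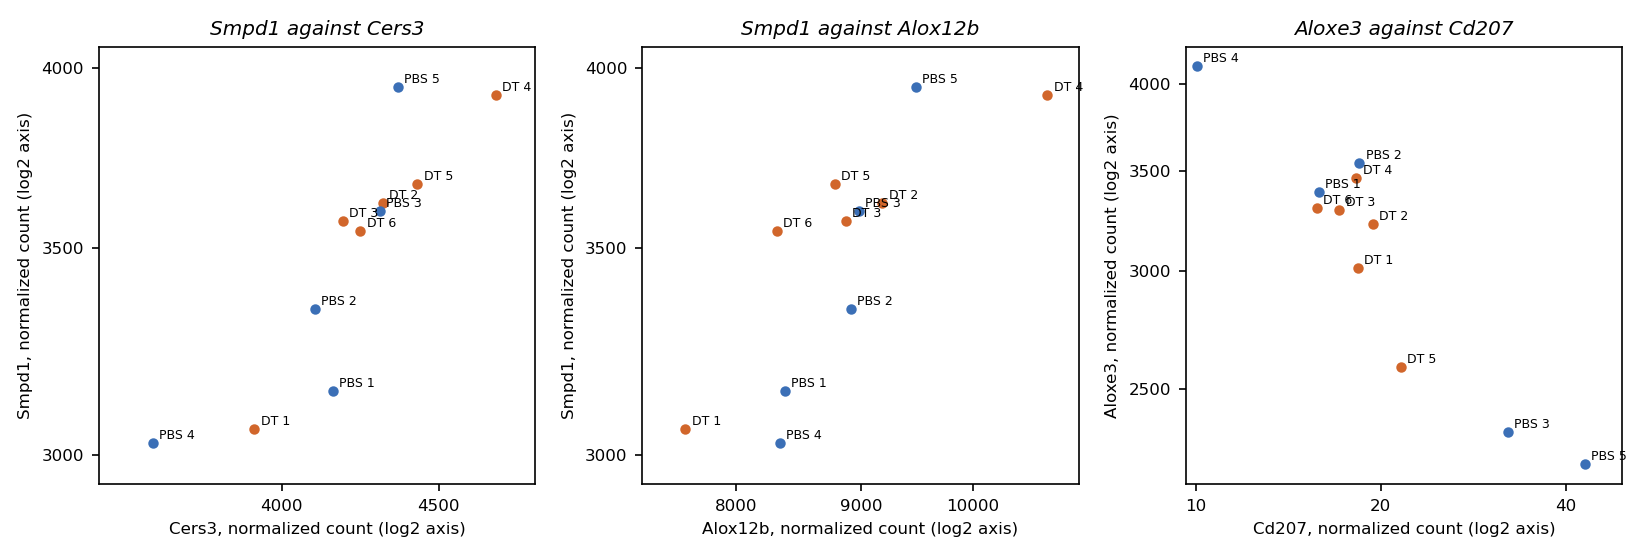
Normalized counts of Smpd1 against Cers3 and against Alox12b, and of Aloxe3 against Cd207, on log2 axes, with 1 point per mouse (blue for PBS, orange for DT). Smpd1 rises with both genes in both groups, and PBS 3 and PBS 5 have the most Cd207 and the least Aloxe3.

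Over 13314 genes outside all lists that averaged 10 or more normalized counts, the one most like each enzyme other than Alox12 in its log2 values over the 11 mice was, as a description, Mroh6 for Aloxe3 and Spint2 for Sptlc2 (r = 0.978 for both), Swi5 for Cers3 (r = 0.966) and Agpat2 for Smpd1 (r = 0.957). It was Rnf225 for Ugcg (r = 0.923), Emp2 for Alox12b (r = 0.922), Mppe1 for Elovl4 (r = 0.921) and Cdc6 for Abca12 (r = 0.919). For Asah1 it was Sap30 (r = 0.862). The 10 genes lie on chromosomes 1 (Abca12), 4 (Ugcg), 7 (Cers3 and Smpd1), 8 (Asah1), 9 (Elovl4), 11 (Alox12, Alox12b and Aloxe3) and 12 (Sptlc2). Alox12b and Aloxe3 are neighbours on chromosome 11, and their r was -0.141 over the 11 mice. It was -0.831 within the PBS-treated and 0.411 within the DT-treated mice.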

How the data were processed

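Stranded mRNA libraries from 5 mice given PBS and 6 given DT were sequenced. The authors trimmed and aligned the reads, counted them per gene and divided them by DESeq2 size factors, so each deposited value is a normalized count (a normalized unit, called other here). The paper names GRCm38, and the submitters' processing notes name GRCm39 with cutadapt 2.10, TopHat2 2.1.1, HTSeq 2.01 and DESeq2 1.36.0, so no gene coordinates of the files are given, and the upstream sequences carry the coordinates of their RefSeq build. The paper trims by a guide for 3′-end libraries, although the labels name a whole-transcript kit, which bears on levels per kb. Low values are multiples of 1 read, which gives 17509327 to 24325513 reads per mouse. The labels call the samples replicates and do not say whether animals were pooled, so p-values measure the spread between these samples.

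The log2(normalized count + 1) values, a scale that understates changes of low genes, were fitted with the linear models of limma 3.58.1 under R 4.3.3, letting the prior variance follow a trend in mean level. The threshold was 0.1 after Benjamini-Hochberg correction across all 19170 genes with values. Correlations used 100000 permutations. Exon lengths came from GENCODE release M21, in which all 180 listed genes with values were found. The procedure was tested on simulated data. Members and lists were chosen with earlier results of these data known. Other genes were named by rule, which took in each pathway list those past the threshold and the 2 further non-members with a mean of at least 10 and the smallest p, for each member the most correlated gene outside the lists, and the highest marker of each marker list. The most correlated gene of Alox12 is not reported here. Cd207, Malat1, Neat1, Alox15, Alox12e, Alox5ap, Smpd3, Elovl5, Sptlc3 and the other family members, and those named only without PBS 3 and PBS 5, were named after their values were seen.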

Additional observations from a re-analysis of the deposited data

How the results depend on the processing

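The number of enzymes past the threshold stayed at 0 with pseudocounts of 0.5 and 10, a filter on low values, TMM scaling, quantile normalization, array weights, the replicate block and each mouse left out, and was 1 (Sptlc2) without PBS 3 and PBS 5. Over all genes it was 107 as reported, 189 with array weights, 1967 without PBS 3 and PBS 5, 35 with the replicate block and between 27 (without DT 5) and 259 (without PBS 5) with a mouse left out. Of the 94 pathway genes, 1 passed with array weights (Pnpla1) and between 0 and 1 with a mouse left out (Pnpla1 without PBS 5 and Alox5ap without PBS 4). Without PBS 3 and PBS 5, 10 of the 94 passed (Sptlc2, Cert1, Degs1, Dgat2, Ephx2, Pnpla1, Scd2, Sdr9c7, Slc27a4 and Smpd4). This share is near the 10.3% of all genes that passed in that fit. Of the pairs of enzymes, 2 passed as reported, 8 with group means removed, 5 without PBS 3 and PBS 5 and between 1 and 5 with a mouse left out. The pairs that passed with a mouse left out did not always include both reported pairs. The sign turned for Alox12b, at 0.010 as reported, to -0.049 with quantile normalization, and its range with a mouse left out was -0.045 to 0.054. Aloxe3 turned to -0.031 with array weights and to -0.228 without PBS 3 and PBS 5, and ranged from -0.066 to 0.156 with a mouse left out. Alox12 turned to 0.014 without PBS 3 and PBS 5, and Abca12 ranged from -0.078 to 0.009 with a mouse left out. None of these was past the threshold, and the cause was not tested. The other 6 enzymes kept their sign in all 19 alternative fits. Deviations of same-numbered mice correlated between -0.233 and 0.324, and the own number was the best match for 1 of 5. With so few mice this cannot exclude a pairing or a shared batch. The library label of PBS 5 also carries a different number than its title, so the block may not set matching libraries together there. The 35 genes called with the block included 0 enzymes. The count-based tests planned for recovered reads were not run, although the low values are multiples of 1 read. At 5 and 6 mice, standard errors of the log2 differences lay between 0.0483 (Ugcg) and 0.135 (Aloxe3), which limits what could be detected.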
